A study of Mus musculus with 170 samples.

Results

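The members described here are 3 protein-coding genes of mouse mitochondrial DNA: mt-Nd3, mt-Atp8 and mt-Cytb. They are 3 of the 21450 gene symbols in the count table, and their 5 probe rows are among its 30146 rows. The table holds 8 mitochondrially encoded symbols in 13 probe rows, and the other 5 are mt-Nd1, mt-Nd2, mt-Nd4, mt-Nd4l and mt-Nd6. The 3 genes were chosen by measured values: they were lower after flaming than after smoldering smoke in lung at 4 h. Values from that contrast, and from each smoke against saline in lung at 4 h, are therefore given as a description with no test. Tests were made on lung at 24 h, on the endotoxin controls, on saline over time, on heart, and on heart against lung. All 3 members passed the count filter in both tissues.

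The study exposed female CD-1 mice, an outbred stock, by oropharyngeal aspiration, in which a droplet placed at the back of the throat is breathed in. Each smoke dose was 50 µL of saline carrying 2 mg/mL of particulate matter condensed from the smoke of 1 fuel. The 5 fuels were eucalyptus, peat, pine, pine needles and red oak, and the smoke of each came from a flaming or a smoldering burn. Groups keep the names in the labels, such as RedOakFlame and PeatSmolder. Saline was the vehicle control, and LPS, the bacterial endotoxin lipopolysaccharide, was the inflammatory control (its dose is not given in the sources used here). Lung was collected at 4 h and 24 h from every treatment. Heart was collected at 24 h from Saline, RedOakFlame, RedOakSmolder, PeatFlame and PeatSmolder mice. Each group had 6 libraries, except LPS with 4, which gives 140 lung and 30 heart libraries in 29 groups. Each library was 1 mouse, so replicates are separate animals, and the sources used here state no age and no engineered genotype. Animal numbers run in blocks by burn phase, so phase and order of animals cannot be told apart. Libraries were made on 2 plates.

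The mitochondrial genome is a small circle of DNA with a heavy and a light strand, each copied into a long precursor RNA. Transfer RNAs lie between most of its genes, and cutting them out releases the messenger RNAs. Every protein it encodes is a part of the respiratory chain or of ATP synthase, which also hold many subunits encoded in the nucleus. mt-Nd3 encodes a membrane subunit of complex I, the NADH dehydrogenase. mt-Cytb encodes cytochrome b, the core of complex III. mt-Atp8 encodes a small membrane subunit of ATP synthase and is carried on the same messenger RNA as mt-Atp6. mt-Nd6, another complex I subunit, is the protein gene read from the opposite strand to all the others, so its RNA comes from the other precursor. Heart muscle is among the tissues richest in mitochondria.

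In the GRCm38 assembly as annotated by GENCODE, mt-Atp8 lies on chromosome M at 7766 to 7969 (204 bases), mt-Nd3 at 9459 to 9806 (348 bases) and mt-Cytb at 14145 to 15288 (1144 bases). Each has 1 exon, is protein-coding and lies on the plus strand. The genome build of the authors' probes is not given in the sources used here, and probes were matched to genes by symbol. The reference sequence of mt-Atp8 is shown whole, and that of mt-Nd3 over its first 300 bases (9459 to 9758), because mt-Nd3 had the largest and mt-Atp8 the smallest change of the 3 in the heart result described below. The final 43 bases of mt-Atp8, in capitals, are also the first 43 bases of mt-Atp6 (7927 to 7969). A probe in that stretch would read both genes, and the position of the probes within the genes is not given in the sources used here.
mt-Atp8: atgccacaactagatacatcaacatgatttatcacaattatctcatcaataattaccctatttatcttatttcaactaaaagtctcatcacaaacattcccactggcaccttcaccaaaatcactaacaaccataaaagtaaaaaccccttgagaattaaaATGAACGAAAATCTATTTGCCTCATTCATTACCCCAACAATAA
mt-Nd3: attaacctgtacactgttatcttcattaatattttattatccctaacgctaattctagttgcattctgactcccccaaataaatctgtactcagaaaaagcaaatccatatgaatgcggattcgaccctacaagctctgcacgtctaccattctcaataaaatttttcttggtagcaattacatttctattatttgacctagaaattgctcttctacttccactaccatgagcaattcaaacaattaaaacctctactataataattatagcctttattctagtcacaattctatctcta

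mt-Nd6 lies on the minus strand at 13552 to 14070, and its last 14 bases are the last 14 bases of mt-Nd5 read from the other strand (13552 to 13565). The short overlap is shown because mt-Nd6 is the gene that moved unlike the members below.
mt-Nd5 end, plus strand: TTAATCTCGAGTAA
mt-Nd6 end, minus strand: TTACTCGAGATTAA

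Library totals ran from 4.43 to 8.05 M counts (megacounts). Lung libraries had a count for 13436 to 15644 symbols at 4 h and for 9886 to 15640 at 24 h, and heart libraries for 13187 to 14329. 6 lung libraries, all at 24 h, had fewer than 13000 detected symbols. Results of the members that they change are given with and without them. The tissue labels matched their markers. The summed level of 7 cardiac muscle markers was 25610 to 35850 CPM in heart (CPM, a gene's counts for every megacount of its library), and that of 4 alveolar type 2 markers was 2350 to 13810 CPM in lung against 1.58 to 24.9 CPM in heart. Lung libraries also held 98.95 to 2233 CPM of the cardiac muscle markers. In bulk tissue, fewer cells of a type and less RNA per cell cannot be told apart.

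The 3 transcripts were far more abundant in heart than in lung. Levels are CPM by total count, with probes summed per gene. Over the 140 lung libraries, mt-Nd3 ranged from 4.74 to 258 CPM with a median of 68.5 CPM. mt-Atp8 ranged from 0.430 to 249 CPM (median 68.5), and mt-Cytb from 0.164 to 309 CPM (median 64.2). Over the 30 heart libraries, mt-Nd3 ranged from 1303 to 5299 CPM (median 2388), mt-Atp8 from 1389 to 3007 CPM (median 2246) and mt-Cytb from 1158 to 2814 CPM (median 2048). No lung library reached the lowest heart library for any of the 3. All 8 mitochondrial symbols together took a median of 0.139% of counts in lung and 1.86% in heart.

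**Figure D1:**
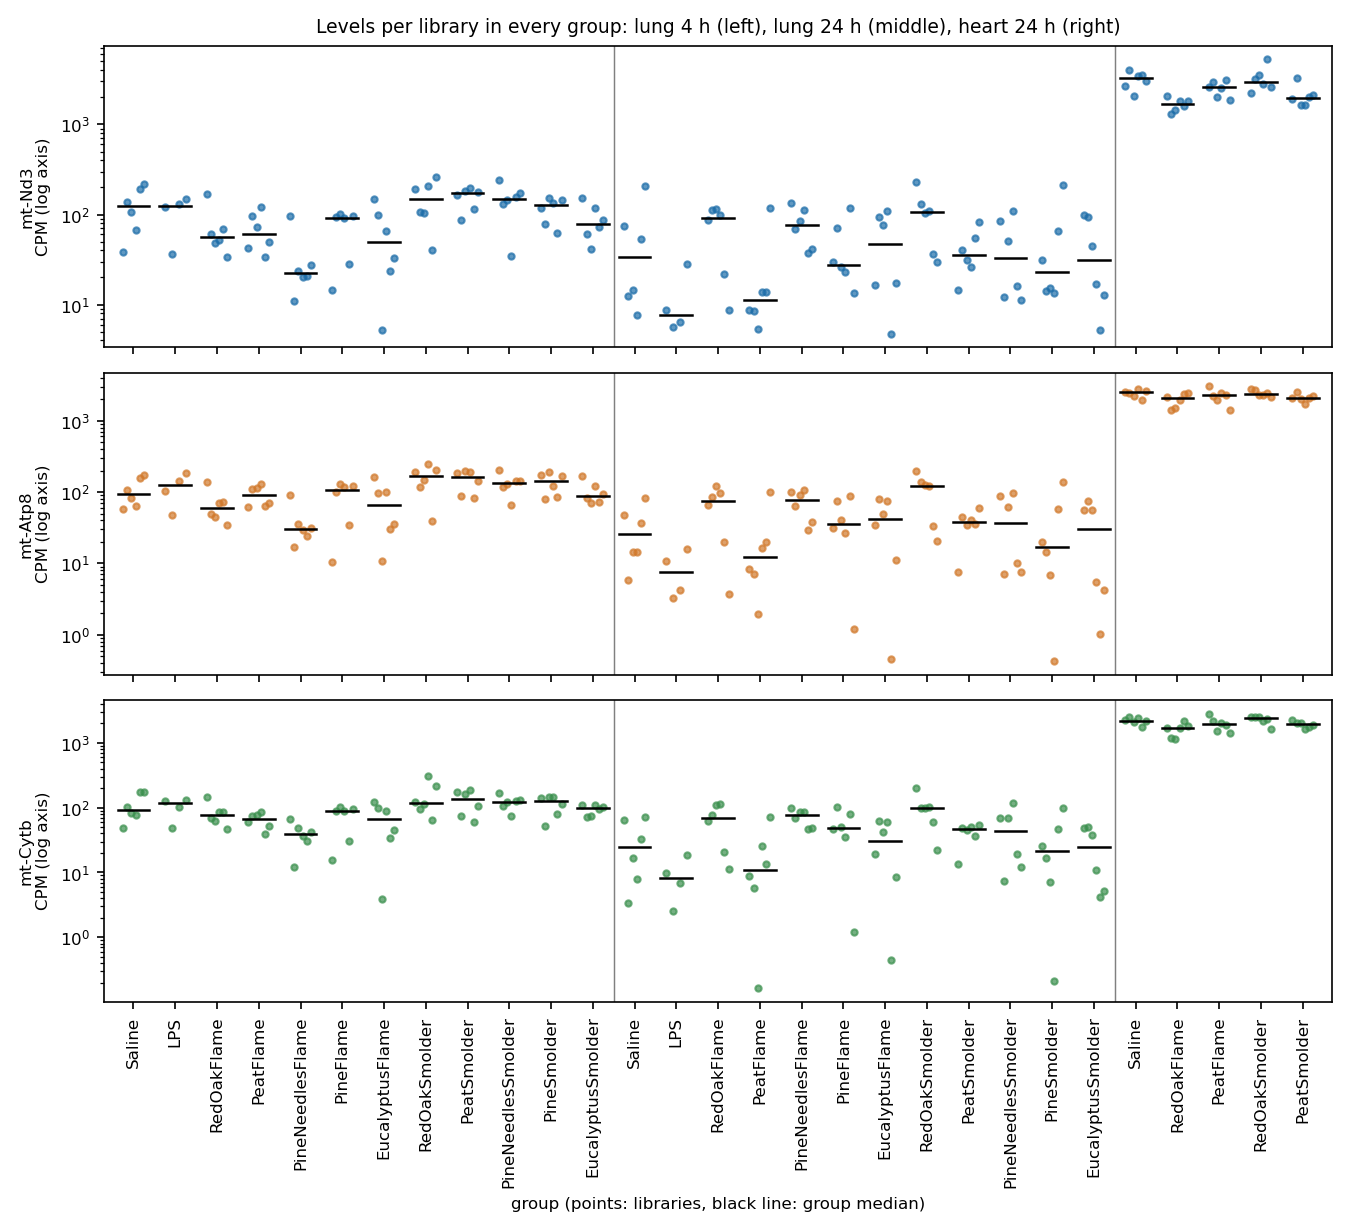
CPM of mt-Nd3, mt-Atp8 and mt-Cytb in each library (log axis), by group, with lung at 4 h, lung at 24 h and heart at 24 h; each point is 1 mouse and bars mark group medians. Heart libraries all sit above 1158 CPM and lung libraries all sit at or below 309 CPM.

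In the 6 saline mice at 24 h, from which both tissues were taken, mt-Nd3 was at 2044 CPM at the lowest, 3247 at the median and 4044 at the highest in heart, against 7.67, 34.1 and 209 CPM in lung. For mt-Atp8 the heart values were 1965, 2500 and 2790 CPM and the lung values 5.86, 25.8 and 82.5 CPM. For mt-Cytb they were 1784, 2210 and 2537 CPM in heart and 3.37, 24.8 and 72.9 CPM in lung. The tissues did not overlap for any member, and heart medians were 95.2-fold (mt-Nd3), 96.9-fold (mt-Atp8) and 88.99-fold (mt-Cytb) above those of lung. With edgeR's quasi-likelihood test (Benjamini-Hochberg adjusted over all genes, called under 0.05), the heart minus lung difference on the log2 scale was 6.50 ± 0.74 (SE) for mt-Nd3 (adjusted p = 1.56e-06). It was 6.99 ± 0.53 for mt-Atp8 (adjusted p = 2.73e-08) and 6.90 ± 0.62 for mt-Cytb (adjusted p = 1.48e-07). Heart and lung differ throughout: 76.5% of 11821 tested genes passed and 34.8% were higher in heart. This test did not use the pairing of the tissues by mouse, and a fit that does is given in the last section.

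The size of the tissue difference was not shared by every mitochondrial gene. mt-Nd1, mt-Nd2, mt-Nd4 and mt-Nd4l, complex I subunits on the same strand as the members, were also higher in heart (log2 5.77, 6.34, 5.42 and 6.85, each called). mt-Nd6 was at 371 to 3024 CPM in heart and 238 to 1985 CPM in lung, the ranges overlapped, and its difference of 1.01 ± 0.65 was not called (adjusted p = 0.168). The nuclear partners of the members were higher too, by smaller medians. Of 35 nuclear complex I subunits tested, 33 were higher and 1 lower in heart (median log2 4.20). All 9 nuclear complex III subunits (median 4.03), all 15 ATP synthase subunits (median 3.89) and 68 of 73 mitochondrial ribosomal proteins (median 2.90) were higher. Among 35 genes of mitochondrial DNA expression and RNA upkeep, 28 were higher and 3 lower (median 1.76). Tfam, which packages mitochondrial DNA and starts its transcription, was higher by 3.46 and Supv3l1, an RNA helicase of the mitochondrial RNA degradosome, by 4.29. 7 of 10 biogenesis regulators were higher, including the coactivator Ppargc1a (3.08), and 2 were lower, including its relative Pprc1 (fell by 1.65 on the log2 scale). Of 9 mitophagy genes, 8 were higher and 1 lower in heart.

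In heart at 24 h after RedOakFlame, all 3 transcripts were lower than in saline hearts. mt-Nd3 was at 1303 CPM at the lowest, 1707 at the median and 2083 at the highest after RedOakFlame, against the saline values above, and 5 of the 6 RedOakFlame hearts lay below every saline heart. mt-Cytb was at 1158, 1692 and 2191 CPM, with 4 of 6 hearts below every saline heart. mt-Atp8 was at 1389, 2041 and 2464 CPM, with 2 of 6 below every saline heart. The ranges overlapped for each gene, but all 6 RedOakFlame hearts lay below the saline median for each. The median was 1.90-fold lower for mt-Nd3, 1.31-fold lower for mt-Cytb and 1.23-fold lower for mt-Atp8. The log2 difference was -1.08 ± 0.21 for mt-Nd3 (adjusted p = 0.00225, edgeR), -0.62 ± 0.17 for mt-Cytb (adjusted p = 0.0180) and -0.50 ± 0.17 for mt-Atp8 (adjusted p = 0.0484). All 3 were called, where 12% of 11179 genes were called in either direction and 6.69% lower.

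The 3 calls did not have the same margin. RedOakFlame hearts also held more detected symbols (13446 to 14329, against 13187 to 13503 in saline hearts). With the number of detected symbols as a covariate, none of the 3 was called: mt-Nd3 was at -0.77 (adjusted p = 0.419), mt-Atp8 at -0.10 (adjusted p = 0.929) and mt-Cytb at -0.19 (adjusted p = 0.833). That model called 3 genes of the whole table, against 1344 without the covariate. Leaving out RedOakFlame replicate 2 left mt-Nd3 as the only member called, with mt-Cytb at -0.53 (adjusted p = 0.0621). mt-Atp8 lost its call in 19 of 30 fits that each left out 1 heart, and with total-count scaling (-0.31, adjusted p = 0.106).

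**Figure D2:**
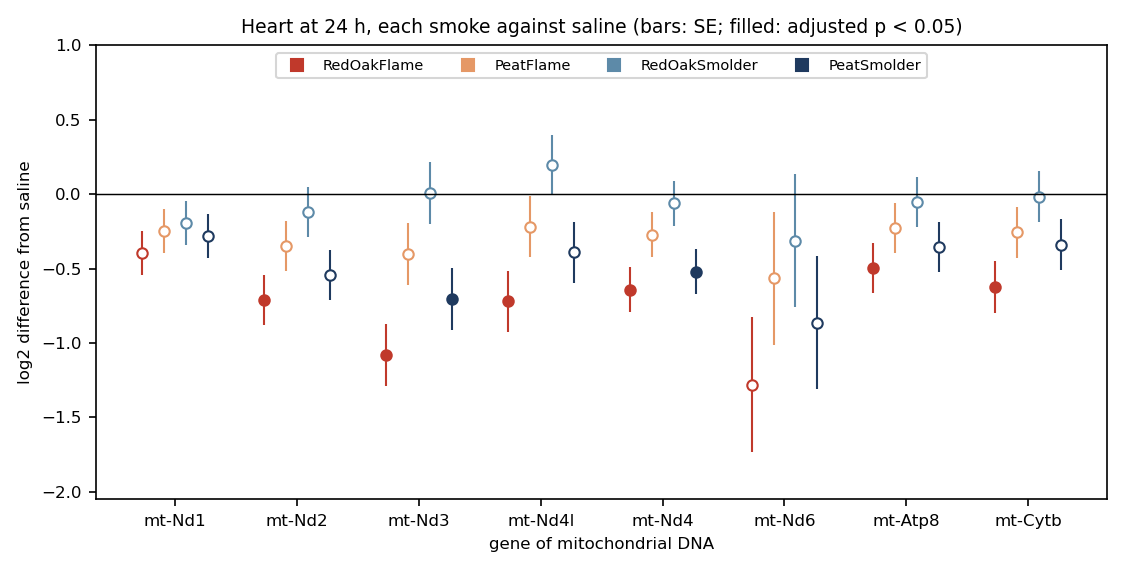
Log2 difference from saline hearts (edgeR, bars 1 SE) for the 3 members and the 5 other mitochondrial genes after each of the 4 smokes; filled points have an adjusted p under 0.05. RedOakFlame lies lowest for all 3 members, and RedOakSmolder lies within 0.05 of 0 for all 3.

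Other mitochondrial genes fell in the same hearts. mt-Nd2 (log2 -0.71, adjusted p = 0.0073), mt-Nd4 (-0.64, adjusted p = 0.0073) and mt-Nd4l (-0.72, adjusted p = 0.0211) passed the edgeR test after RedOakFlame. mt-Nd1 (-0.40, adjusted p = 0.0752) and mt-Nd6 (-1.28 ± 0.45, adjusted p = 0.0618) did not. In saline hearts mt-Nd6 rests on a wide spread, with 1 heart at 3024 CPM and a median of 829 CPM.

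Nuclear-encoded subunits of the same complexes also fell in RedOakFlame hearts, and no gene of these lists rose. Of 35 nuclear complex I subunits, 26 were lower (median log2 of the list -0.56, against 0.03 over all genes tested). They included Ndufb4 (-0.93), Ndufb2 (-0.90), Ndufb8 (-0.88) and Ndufa1 (-0.58), accessory subunits of the complex that holds the mt-Nd3 protein. 7 of 9 nuclear complex III subunits were lower (median -0.58). Uqcrh, the hinge protein of complex III, was at 1567 ± 194 CPM (SD, n = 6) after RedOakFlame and 2448 ± 460 CPM in saline (log2 -0.83). For ATP synthase, 11 of 15 subunits were lower (median -0.51), and Atp5l, its subunit g, was at 242 ± 37.9 CPM against 366 ± 53.98 CPM (log2 -0.78). The mitochondrial ribosome, which translates the members' RNAs, had 38 of 74 proteins lower (median -0.49), among them Mrps24 (-0.86) and Mrps10 (-0.74).

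Of 35 genes that make or keep mitochondrial RNA, 4 were lower after RedOakFlame (median -0.20), to be read against the 6.69% of all genes called lower. They were Slirp (-0.54), which binds and stabilises mitochondrial messenger RNA, Fastkd2 (-0.61), an RNA-binding protein of the mitochondrial matrix, Tefm (-0.62), the elongation factor of the mitochondrial polymerase, and Ptcd3 (-0.38), a protein of the mitochondrial ribosome. Of 10 biogenesis regulators, 1 was lower, the deacetylase Sirt3 (-0.37). Of 9 mitophagy genes, 2 were lower, the receptor Bnip3 (-0.60) and the inner-membrane prohibitin Phb2 (-0.34). These nuclear calls, like those of the members, were among the 1344 calls made without the covariate.

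Markers of cell types in the same hearts were as follows. The 7 cardiac muscle markers summed to 29270 to 35850 CPM after RedOakFlame and 26640 to 32930 CPM in saline, with 0 of 7 called. The 2 endothelial markers summed to 42.1 to 51.4 CPM against 24.8 to 37.8 CPM, without overlap, and 1 of 2, Pecam1, was called higher. The 3 fat markers summed to 1.06 to 78.7 CPM against 1.24 to 14.1 CPM, and the 4 red cell markers to 53.7 to 206 CPM against 49.2 to 252 CPM, with none called. The part of endothelial RNA in the result was not tested.

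After PeatSmolder, mt-Nd3 fell in heart, and the other 2 members did not pass the test. mt-Nd3 was at 1631, 1983 and 3276 CPM (lowest, median and highest), and 4 of 6 hearts lay below every saline heart. Replicate 2, at 3276 CPM, lay above the saline median. The difference was -0.70 ± 0.21 (adjusted p = 0.0474, edgeR), with 4.29% of genes called and 1.91% called lower. mt-Atp8 (-0.35, adjusted p = 0.219) and mt-Cytb (-0.34, adjusted p = 0.263) were not called, and the difference between the members' changes was not tested. For each of the 3, 5 of 6 PeatSmolder hearts lay below the saline median. Without replicate 2 the mt-Nd3 difference was -0.90 (adjusted p = 0.00881). Its call was lost in 16 of 30 fits without 1 heart, without the count filter (adjusted p = 0.0805), with total-count scaling (adjusted p = 0.0629) and with detected symbols as a covariate (-0.46, adjusted p = 0.41). PeatSmolder hearts had 13604 to 13949 detected symbols, none within the saline range. Their 2 endothelial markers summed to 35.3 to 56.02 CPM (median 47.4) against 24.8 to 37.8 CPM (median 31.7) in saline, with 0 of 2 called, and the part of endothelial RNA in the result was not tested. Of the other mitochondrial genes, mt-Nd4 was called (-0.52, adjusted p = 0.0431) and mt-Nd2 was not (-0.54, adjusted p = 0.0579). Lower calls in the nuclear lists numbered 12 of 35 for complex I, 1 of 9 for complex III (Uqcr10), 3 of 15 for ATP synthase and 10 of 74 for the ribosome.

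The remaining heart comparisons called none of the members. After PeatFlame, mt-Nd3 was at 1885, 2585 and 3106 CPM, and the differences from saline were -0.40 for mt-Nd3, -0.23 for mt-Atp8 and -0.26 for mt-Cytb (0.0447% of all genes called). After RedOakSmolder, mt-Nd3 was at 2238, 2982 and 5299 CPM, and the differences were 0.01, -0.05 and -0.02. edgeR called 0 genes of the whole table (0%) there, and 700 had an unadjusted p under 0.05. Every RedOakFlame heart lay below every RedOakSmolder heart for mt-Nd3, although flaming minus smoldering over both fuels was not called for mt-Nd3 (-0.40, adjusted p = 0.172), mt-Atp8 (-0.16, adjusted p = 0.509) or mt-Cytb (-0.26, adjusted p = 0.267), with 0.0358% of genes called. The mean of the 4 smokes against saline was -0.54 for mt-Nd3 (adjusted p = 0.0563), -0.28 for mt-Atp8 (adjusted p = 0.209) and -0.31 for mt-Cytb (adjusted p = 0.181), with 2.33% of genes called. DESeq2 called mt-Nd3 for that mean (adjusted p = 0.0264).

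By median, saline was the highest of the 5 heart groups for mt-Nd3 and mt-Atp8, followed by RedOakSmolder, PeatFlame, PeatSmolder and RedOakFlame. For mt-Cytb the highest was RedOakSmolder and the lowest RedOakFlame. In this order no neighbouring pair of groups was free of overlap, for any member.

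In lung at 24 h the 3 transcripts ranged more widely than in heart, and no smoke group differed from saline by the test. mt-Nd3 was at 4.74, 39.2 and 134.98 CPM (lowest, median and highest of 30) after flaming and 5.25, 38.2 and 229 CPM after smoldering smoke. mt-Atp8 was at 0.452, 39.2 and 121.8 CPM against 0.430, 38.01 and 197 CPM, and mt-Cytb at 0.164, 47.7 and 113.5 CPM against 0.215, 46.4 and 199 CPM. The phases thus had close medians and overlapped over most of their range. Flaming minus smoldering, averaged over the 5 fuels, was -0.09 for mt-Nd3, -0.01 for mt-Atp8 and 0.03 for mt-Cytb on the log2 scale (adjusted p = 1 for each, 0.111% of 14458 genes called). The mean of 10 smokes against saline was -0.20, 0.43 and 0.43 (adjusted p = 1 for each, 0.00692% of genes called). Without saline replicate 6, whose mt-Nd3 was 209 CPM where the other 5 were at 7.67 to 74.5 CPM, the mt-Nd3 difference was 0.71.

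RedOakSmolder gave the highest medians of lung at 24 h. mt-Nd3 was at 29.6, 106.96 and 229 CPM, mt-Atp8 at 20.4, 122.8 and 197 CPM and mt-Cytb at 22.5, 99.1 and 199 CPM. The ranges overlapped those of saline, and none of the differences was called: 0.72 ± 0.60 for mt-Nd3 (adjusted p = 0.527), 1.56 ± 0.65 for mt-Atp8 and 1.5 ± 0.60 for mt-Cytb (adjusted p = 0.373 for both), with 0.00692% of genes called. Without saline replicate 6, mt-Nd3 stood at 1.6 (adjusted p = 0.164). Each of the other 9 smokes also called 0 of 3 members. The share of all genes called was 1.75% for RedOakFlame, 0.0692% for PeatFlame, 0.0207% for PineNeedlesSmolder, 0.00692% for PeatSmolder, PineNeedlesFlame and EucalyptusFlame, and 0% for PineSmolder, EucalyptusSmolder and PineFlame.

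Flaming minus smoldering within a fuel at 24 h was called for no member in any fuel. For mt-Nd3 it was -0.44 in red oak (6.81% of genes called), -0.53 in peat (0.0622%), 0.79 in pine needles (0.0277%), -0.43 in pine (0%) and 0.18 in eucalyptus (0.00692%). The pine medians of mt-Nd3 ran the other way, at 27.8 CPM after PineFlame and 23.2 CPM after PineSmolder. PineSmolder replicate 6 was at 214 CPM (others 13.3 to 65.4). In peat, 5 of 6 PeatFlame lungs lay below every PeatSmolder lung, with medians of 11.2 and 35.75 CPM. PeatFlame replicate 6, at 118.1 CPM, lay above every PeatSmolder lung. The differences without these libraries are not given here. A test for any difference among saline and the 10 smokes called none of the members (adjusted p = 0.417 for mt-Nd3, 0.266 for mt-Atp8 and 0.0697 for mt-Cytb), while 16.1% of genes passed it. PineNeedlesSmolder lungs at 24 h were all on plate 1 and most other 24 h libraries on plate 2, so plate was a term of the lung model.

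LPS at 24 h gave the lowest medians of all lung groups for each member. The 4 LPS lungs had mt-Nd3 at 8.81, 5.69, 6.36 and 27.9 CPM (replicates 1 to 4), and the mean was 12.2 ± 10.6 CPM (SD, n = 4) against 61.99 ± 76.8 CPM (n = 6) in saline. They had mt-Atp8 at 10.7, 3.30, 4.24 and 15.9 CPM and mt-Cytb at 9.76, 2.57, 6.94 and 18.5 CPM. All 4 lay below the saline median for each gene, and 2 of 4 (mt-Nd3 and mt-Atp8) or 1 of 4 (mt-Cytb) lay below every saline lung. Medians were 4.50-, 3.45- and 2.97-fold lower than in saline for mt-Nd3, mt-Atp8 and mt-Cytb. None passed the edgeR test: -2.03 ± 0.73 for mt-Nd3 (adjusted p = 0.0534), -1.70 ± 0.77 for mt-Atp8 (adjusted p = 0.151) and -1.49 ± 0.70 for mt-Cytb (adjusted p = 0.174), where 12.1% of genes were called and the median of all genes was -0.12.

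The mt-Nd3 value after LPS lay close to the threshold, and other settings moved it to either side. DESeq2 called it (-2.18, adjusted p = 0.0176), as did edgeR without the 6 lungs under 13000 detected symbols (-2.01, adjusted p = 0.0355) and with detected symbols as a covariate (-1.95, adjusted p = 0.0262). Without LPS replicate 4 it was -2.81 (adjusted p = 0.0165), and without saline replicate 6 it was -1.10 (adjusted p = 0.395). Within plate 2 alone the differences were -1.83, -1.68 and -1.21 for mt-Nd3, mt-Atp8 and mt-Cytb, with mt-Nd3 not called (adjusted p = 0.4).

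Markers of other cell types moved in the same lungs. The 7 cardiac muscle markers summed to 133.3 to 177 CPM after LPS and 395 to 1061 CPM in saline, and 5 of 7 were called lower. The 6 ciliated cell markers summed to 126.9 to 261 CPM against 489 to 881 CPM (2 of 6 lower), and the 2 club cell markers to 7307 to 19560 CPM against 22560 to 47990 CPM (2 of 2 lower). The 3 neutrophil markers summed to 104.9 to 166 CPM against 4.08 to 22.1 CPM (3 of 3 higher). None of these 4 sums overlapped between the groups, and their part in the values of the mitochondrial transcripts was not tested. No nuclear subunit of complex I, complex III or ATP synthase was called after LPS at 24 h (0 of 36, 0 of 9 and 0 of 15). Among the 35 genes of mitochondrial DNA expression and RNA upkeep, Slirp (0.65) and Ptcd1 (0.79) were called higher. Of the biogenesis regulators, Pprc1 was higher (0.84) and Ppara, a nuclear receptor of fatty acid oxidation, was lower (-1.0). 3 of 74 mitochondrial ribosomal proteins were higher. Among the mitophagy genes, Phb2 was called higher.

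At 4 h the LPS lungs overlapped the saline lungs for each member. mt-Nd3 was at 119.9, 36.05, 131.1 and 149 CPM after LPS (replicates 1 to 4) and at 38.5, 123.3 and 217 CPM (lowest, median and highest) in saline. mt-Atp8 was at 104.6, 47.9, 144 and 182.5 CPM, and mt-Cytb at 128.1, 48.4, 104.1 and 129.6 CPM, against saline ranges of 57.1 to 175 and 48.98 to 176 CPM. Replicate 2 was the lowest of the 4 for each gene. The differences were -0.08, 0.29 and 0.03 for mt-Nd3, mt-Atp8 and mt-Cytb (adjusted p = 0.973, 0.886 and 0.991), with 8.98% of genes called. Every LPS lung at 24 h lay below every LPS lung at 4 h for all 3 genes, and medians were 16.5-, 16.7- and 13.9-fold lower. The same separation was seen for mt-Nd1, mt-Nd2, mt-Nd4 and mt-Nd4l, and mt-Nd6 overlapped. The share of all genes that separate in this way is not given here, and this pair of groups was not tested. All LPS lungs at 4 h were on plate 1, and all but replicate 1 at 24 h were on plate 2. These ratios carry no plate term, so the gap also crosses plates.

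Saline lungs were also lower at 24 h than at 4 h, without passing the test. The 24 h median was 3.62-fold lower for mt-Nd3, 3.69-fold for mt-Atp8 and 3.72-fold for mt-Cytb. Of the 6 lungs at 24 h, 3, 5 and 4 lay below every 4 h saline lung. The model gave -0.94 (adjusted p = 0.807), -1.57 (adjusted p = 0.608) and -1.59 (adjusted p = 0.545), with edgeR calling 0 genes of the table (0%), 1031 at an unadjusted p under 0.05, and DESeq2 calling 10. With detected symbols as a covariate, mt-Cytb was called (-1.79, adjusted p = 0.0449). Saline lungs at 4 h were on plate 1 and 5 of 6 at 24 h on plate 2, so time and plate are separated only through the 17 lungs at 24 h on plate 1 and the 5 PineNeedlesSmolder lungs at 4 h on plate 2. Without saline replicate 6 at 24 h the mt-Nd3 difference was -1.73 (adjusted p = 0.299). The LPS effect at 24 h minus that at 4 h was -1.95, -1.99 and -1.51 and was not called for any member (adjusted p = 0.584, 0.611 and 0.744; 0.581% of genes called).

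The contrast that chose the members is described here without a test. At 4 h, mt-Nd3 was at 5.19, 50.7 and 168 CPM (lowest, median and highest of 30 lungs) after flaming and 34.9, 133.3 and 258 CPM after smoldering smoke. mt-Atp8 was at 10.4, 67.4 and 161 CPM against 39.05, 134.5 and 249 CPM, and mt-Cytb at 3.85, 64.6 and 145 CPM against 51.7, 113.3 and 309 CPM. The phases overlapped in each case, and saline medians (123.3, 95.05 and 92.4 CPM) lay between the phase medians. Flaming minus smoldering was -1.15 for mt-Nd3, -0.99 for mt-Atp8 and -0.98 for mt-Cytb. Of 14458 genes, 2.39% were called in this contrast and 0.671% were called lower. The difference of mt-Nd2 was -0.71.

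By fuel, the mt-Nd3 difference at 4 h was -2.17 in pine needles, -1.17 in peat, -1.13 in red oak, -0.74 in pine and -0.52 in eucalyptus. That of mt-Atp8 ran from -1.79 in pine needles to -0.51 in eucalyptus, and that of mt-Cytb from -1.72 to -0.53 in the same fuels. The medians of mt-Nd3 after smoldering smoke were 171 CPM for PeatSmolder, 150 for PineNeedlesSmolder, 149 for RedOakSmolder, 126.98 for PineSmolder and 79.1 for EucalyptusSmolder. After flaming smoke they were 92.4 CPM for PineFlame, 60.97 for PeatFlame, 56.2 for RedOakFlame, 48.95 for EucalyptusFlame and 22.3 for PineNeedlesFlame. Eucalyptus had the smallest model difference between phases and the lowest of the smoldering medians of mt-Nd3. By the ratio of medians the mt-Nd3 gap was smallest in pine, at 1.37-fold against 1.62-fold in eucalyptus. PineNeedlesFlame had the lowest flaming median although its replicate 1 was at 95.3 CPM. PineNeedlesSmolder at 4 h had 5 of its 6 libraries on plate 2 and the other 4 h groups were on plate 1, so the pine needles gap crosses plates.

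**Figure D3:**
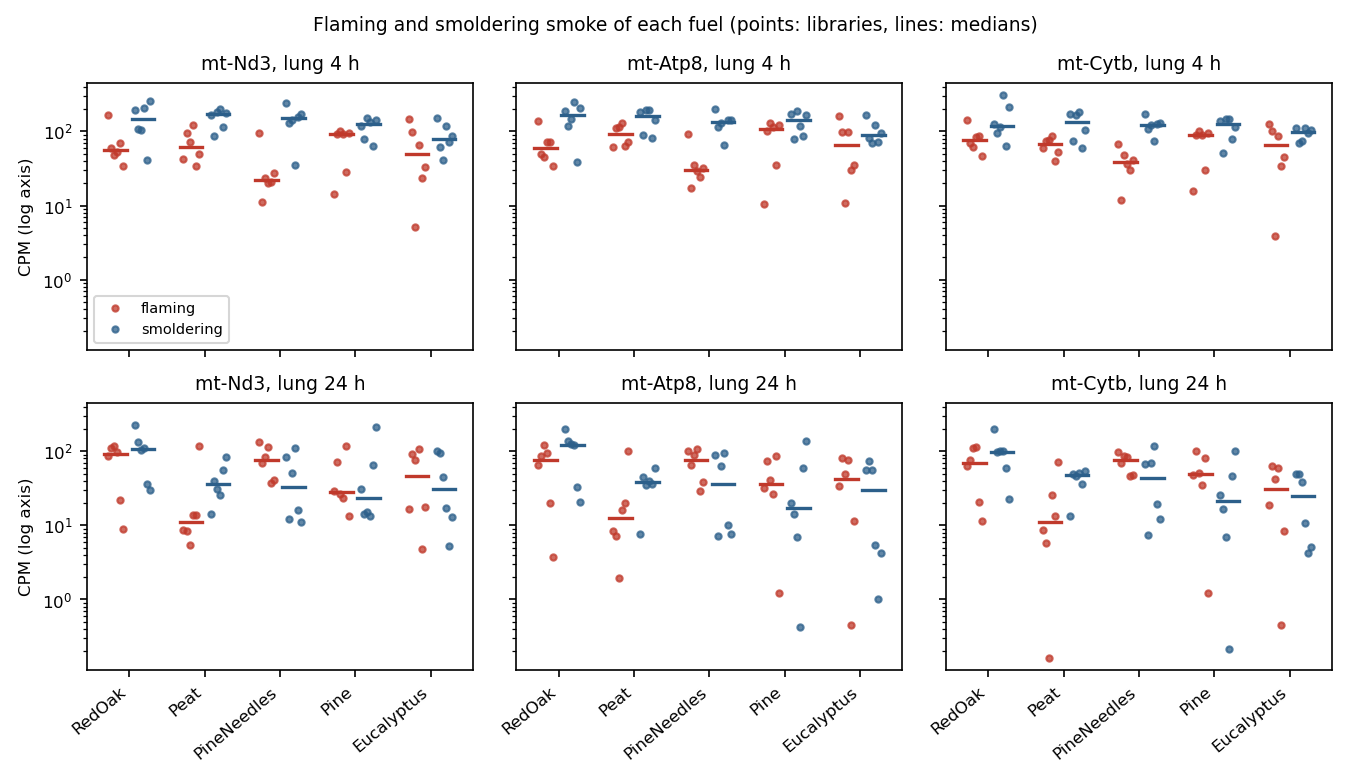
CPM (log axis) of mt-Nd3, mt-Atp8 and mt-Cytb in each lung after flaming and smoldering smoke of each fuel, at 4 h in the upper row and 24 h in the lower row; points are libraries and lines are group medians. At 4 h the flaming median of mt-Nd3 lies below the smoldering median in each of the 5 fuels, and at 24 h the order of the phases differs between fuels.

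Across all 24 lung groups, the highest median of mt-Nd3 was in PeatSmolder at 4 h (171 CPM) and the lowest in LPS at 24 h (7.59 CPM), with PeatFlame at 24 h next (11.2 CPM). For mt-Atp8 the ends were RedOakSmolder at 4 h (169 CPM) and LPS at 24 h (7.47 CPM). For mt-Cytb they were PeatSmolder at 4 h (135.5 CPM) and LPS at 24 h (8.35 CPM). All 23 neighbouring pairs in each order overlapped, so no single step of the order was clear of the spread between mice.

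Detected symbols per library moved with the 3 transcripts in a different direction in each tissue. Levels were taken here as log2(CPM + 1) after scaling by edgeR's normalization factors, with p-values from 100000 permutations adjusted over 24 relations. In lung at 24 h (n = 70), more detected symbols went with higher levels: Spearman rho was 0.63 for mt-Nd3, 0.70 for mt-Atp8 and 0.70 for mt-Cytb, and Pearson r was 0.47, 0.73 and 0.69. The permutation p was 1e-05 before and 2e-05 after adjustment for each, from the smallest p these permutations can give. Both measures come from the counts of the same library. On deviations from group means, with permutations within groups, rho was 0.59, 0.73 and 0.73 (adjusted permutation p = 2.67e-05 for each). Without the 2 libraries farthest from the median of detected symbols, r was 0.52, 0.78 and 0.80. The relation held within plate 1 (n = 17; rho 0.61, 0.52 and 0.57) and within plate 2 (n = 53; rho 0.67, 0.78 and 0.75).

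In lung at 4 h (n = 70) no rank relation was detected over all libraries, and within groups that of mt-Cytb passed the threshold. Spearman rho was -0.01, 0.01 and 0.02 for mt-Nd3, mt-Atp8 and mt-Cytb (adjusted permutation p = 0.958 for each). Pearson r was 0.31, 0.27 and 0.38 (adjusted permutation p = 0.0127, 0.0285 and 0.00415), and without the 2 farthest libraries it was 0.00, -0.01 and -0.02, so it rests on those 2. On deviations from group means, rho was 0.24, 0.19 and 0.27 (adjusted permutation p = 0.0618, 0.134 and 0.0412) and Pearson r was 0.39, 0.30 and 0.48 (adjusted permutation p = 0.0126, 0.0412 and 0.00657).

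In heart (n = 30) the sign was the opposite. Spearman rho was -0.61, -0.67 and -0.74 (adjusted permutation p = 0.000555, 8.57e-05 and 5.54e-05), and Pearson r was -0.63, -0.74 and -0.77. Without the 2 farthest hearts r was -0.55, -0.63 and -0.68. Smoke groups with low levels also had more detected symbols, so the relation was recomputed on deviations from group means. There rho was -0.37, -0.54 and -0.53, with an adjusted permutation p of 0.0618 for mt-Nd3, 0.0126 for mt-Atp8 and 0.0130 for mt-Cytb.

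**Figure D4:**
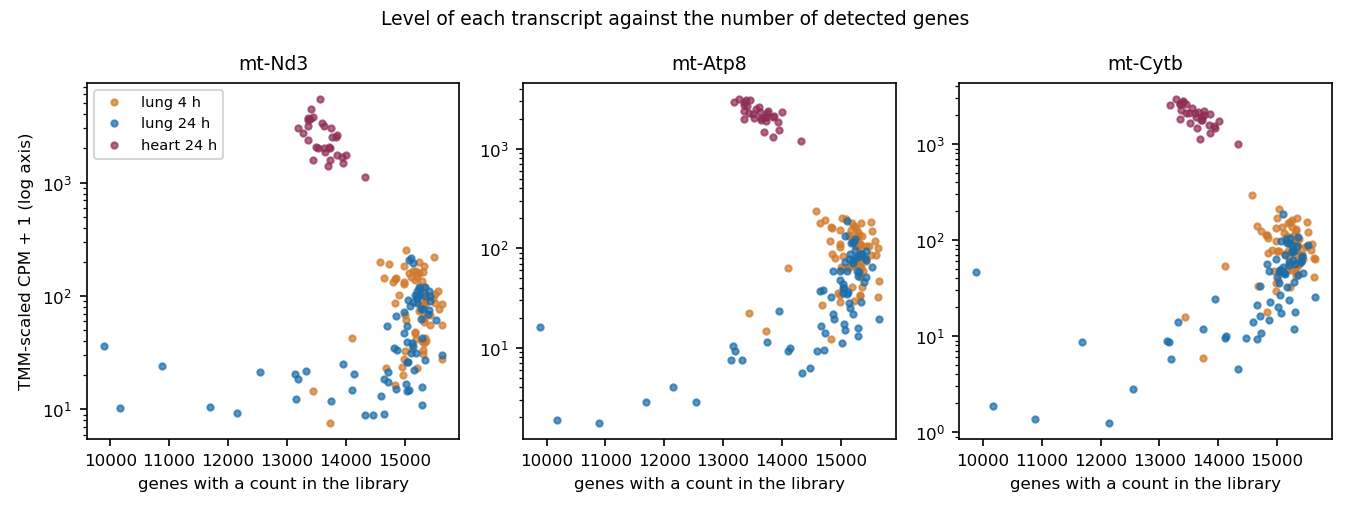
Member level, CPM + 1 after scaling on a log axis, against the number of symbols with a count per library, for lung at 4 h, lung at 24 h and heart at 24 h; each point is 1 library. The 24 h lungs run from low to high with detected symbols (rho 0.63 to 0.70) and hearts run the other way (rho -0.61 to -0.74).

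The 6 lungs at 24 h with under 13000 detected symbols sat at the floor of the members' range. They had mt-Nd3 at 4.74 to 13.5 CPM, mt-Atp8 at 0.430 to 3.77 CPM and mt-Cytb at 0.164 to 11.49 CPM, with totals of 4.43 to 6.11 M counts. The same 6 libraries had mt-Nd6 at 2875 to 9802 CPM, where the median of all 24 h lungs was 514 CPM.

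mt-Nd6 thus moved against the members in lung. The correlation of its log2 level with the mean of the 3 members across lung libraries was r = -0.75 (n = 140, a description, since libraries share their depth scaling), and in heart it was 0.41 (n = 30). Its rank relation with detected symbols was -0.59 in lung at 4 h, -0.81 in lung at 24 h (adjusted permutation p = 2e-05 for both) and -0.46 in heart (adjusted permutation p = 0.0135). Without the 2 farthest hearts, rho of mt-Nd6 was -0.35 (adjusted permutation p = 0.0937) and r was -0.40 (adjusted permutation p = 0.0493). On deviations from group means in heart, rho was -0.37 (adjusted permutation p = 0.0601) and r was -0.42 (adjusted permutation p = 0.0130). Within lung the members tracked one another (r of 0.93 for mt-Nd3 with mt-Atp8, 0.91 for mt-Nd3 with mt-Cytb and 0.97 for mt-Atp8 with mt-Cytb). In heart mt-Atp8 and mt-Cytb stayed close (0.89) and mt-Nd3 was looser with them (0.62 and 0.64). The probe pair of mt-Nd3 correlated at 0.83 in lung and 0.79 in heart, and that of mt-Atp8 at 0.94 and 0.92.

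mt-Nd6 was also the mitochondrial gene with a called difference among saline and smokes in lung at 24 h. The test for any difference gave it an adjusted p of 0.000261 (edgeR). Without the 6 lungs of few detected symbols that p was 0.0838, with detected symbols as a covariate it was 0.292, and over the 24 h libraries alone it was 0.0894. Against saline, the edgeR model put mt-Nd6 higher after RedOakFlame (2.88 ± 0.79, adjusted p = 0.0344). Replicate 6 of that group held 9802 CPM and had 9886 detected symbols, the fewest of any library. The other RedOakFlame lungs were at 211 to 1544 CPM. By median the group was 1.67-fold lower than saline, and 4 of its 6 lungs lay below the saline median. The difference without replicate 6 is not given here. 1 of its 2 probes gave nearly all of its counts.

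**Figure D5:**
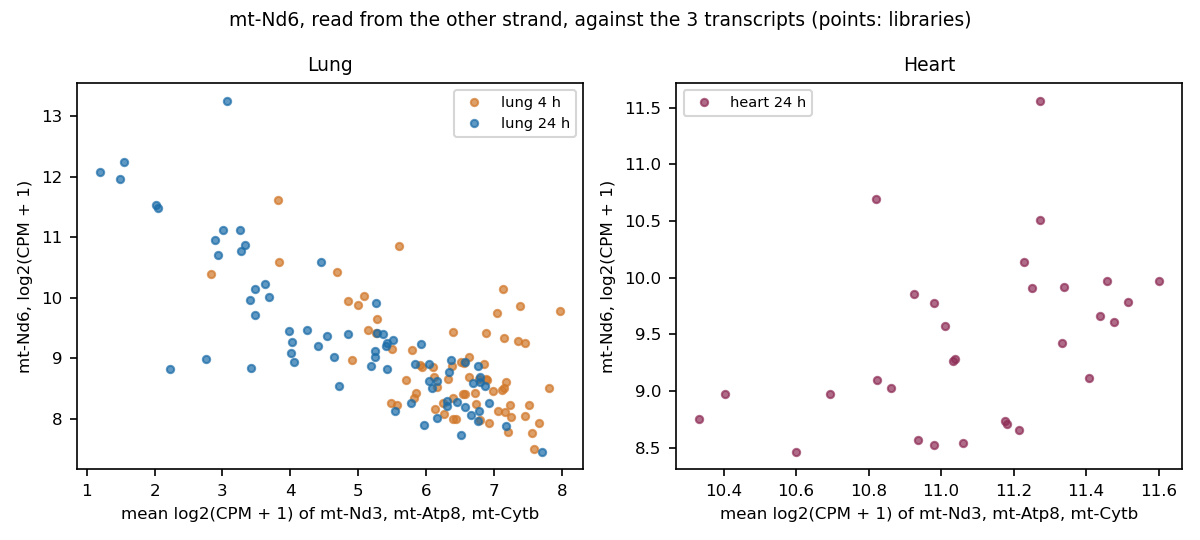
mt-Nd6 against the mean of the 3 members, log2(CPM + 1), in each lung and heart library. In lung the libraries with the highest mt-Nd6 have the lowest member levels (r = -0.75, n = 140), and in heart the slope is the other way (r = 0.41, n = 30).

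Genes most like the members were ranked by the Pearson correlation of their log2 level with the mean of the 3 across libraries, which share their depth scaling, as a description. In lung (140 libraries, 10463 genes) the highest were Pon1 (0.94), Gm4076 (0.94), Tmem56, Cfap36, Apoo, Hint3, Il13ra1 and Spag16 (0.92). The lowest were Clta (-0.95), Pdzd11, Ndufb6 (-0.93), Psenen, Cox6b1, Ndufa1 (-0.92), Ecm1 and Bloc1s3. In heart (30 libraries, 8354 genes) the highest were Bola3 (0.89), Ndufb2 (0.88), Hypk, Usmg5, Uqcrh (0.87), Apoo-ps, Gpx4 and Uqcrb (0.86). Ndufb2 is a subunit of complex I, Uqcrh and Uqcrb are subunits of complex III, and Usmg5 is a small protein of ATP synthase. Ndufb6 and Ndufa1, which were among the lowest in lung, are also nuclear subunits of complex I. Among the lowest in heart were Arhgef1 (-0.91), Cavin1, Mvp, Plpp3, Rpn2 and Arhgdia.

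No relation was detected between the lung and the heart of a mouse. Over the 30 animals with both tissues, deviations from group means correlated between lung and heart at r = -0.21 for mt-Nd3, -0.27 for mt-Atp8 and -0.12 for mt-Cytb (adjusted permutation p = 0.44, 0.44 and 0.606 over 6 relations). Spearman rho was -0.23, -0.12 and -0.27 (adjusted permutation p = 0.44, 0.606 and 0.44). Without the 2 farthest animals r was -0.11, -0.14 and -0.16.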

How the data were processed

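RNA of lung and heart was measured with TempO-Seq, in which probe pairs that meet on a transcript are joined, amplified and sequenced; a QuantSeq 3' kit is also named, per the labels' protocols. The authors deposited whole-number read counts per probe, and Bowtie and DESeq2 are named, per the submitters' processing notes, without version or role. The sources used here give no genome build or strand setting. The SEs given come from models over separate mice and cover the spread between animals, except in heart against lung. There both tissues came from the same saline mice, and the main model did not use the pairing.

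Counts of probes were summed per symbol (15160 symbols have 1 probe row, 6290 several). The main test was edgeR 4.0.16 quasi-likelihood (TMM factors, expression filter, trended dispersion, robust), in R 4.3.3. Lung used all 140 libraries with group and plate as terms, heart 30 libraries with group, and tissue the 12 saline libraries at 24 h. An adjusted p under 0.05 over all tested genes is a call, and SE is the log2 change over the root of F. Levels are CPM by total count. Alternatives were DESeq2 1.42.0, its size factors, total-count scaling, no expression filter, no plate term, 1 plate alone, detected symbols as a covariate, each probe alone, the replicate block, and leaving out libraries. Correlations used scipy 1.17.1.

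The members and gene lists were chosen with earlier results of these data known. The text names the 3 members, the other mitochondrial genes, up to 4 called genes per list with the smallest p, and the 8 genes most like the members; the genes least like them and markers named singly were chosen after their values were seen. Lung and heart of a saline mouse share the animal number in the titles, which pairs them. No 2 libraries held the same counts: at least 13635 symbols differed in every pair.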

Additional observations from a re-analysis of the deposited data

Results flagged for a closer look

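The 4 genes mt-Nd3, mt-Atp8, mt-Cytb and mt-Nd6 were screened in the 29 groups of 4 or 6 libraries. In 22 gene and group pairs the highest or lowest library was set apart from the rest by Dixon's criterion. For normally distributed values, chance alone meets that criterion in about 1 group in 20. Here it was applied to CPM, whose distribution was not tested, and the members tracked one another in lung. The count of 22 therefore cannot be set against that rate. Values are CPM, with the range of the other libraries for the members.

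For mt-Nd3 in heart, PeatSmolder replicate 2 was high at 3276 (others 1631 to 2115). For mt-Cytb in heart, RedOakSmolder replicate 6 was low at 1653 (others 2192 to 2472). In lung at 24 h, the mt-Nd3 of saline replicate 6 was 209 (others 7.67 to 74.5), that of LPS replicate 4 was 27.9 (others 5.69 to 8.81) and that of PineSmolder replicate 6 was 214 (others 13.3 to 65.4). PeatFlame replicate 6 at 24 h was high for all 3 members, with mt-Nd3 at 118.1 (others 5.40 to 13.8), mt-Atp8 at 99.3 (others 1.96 to 20.3) and mt-Cytb at 71.7 (others 0.164 to 25.9). In lung at 4 h, RedOakFlame replicate 1 had mt-Nd3 at 168 (others 33.8 to 69.4) and mt-Atp8 at 140 (others 34.3 to 71.5). PineNeedlesFlame replicate 1 at 4 h had mt-Nd3 at 95.3 (others 11.04 to 27.4) and mt-Atp8 at 91.3 (others 17.2 to 35.6).

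mt-Nd6 accounted for 10 of the 22. In heart it was high in saline replicate 1 (3024) and RedOakFlame replicate 5 (874). In lung at 24 h it was high in RedOakFlame replicate 6 (9802), PineSmolder replicate 4 (4834), EucalyptusFlame replicate 5 (4328) and PineFlame replicate 6 (2875). In lung at 4 h it was high in PineNeedlesFlame replicate 2 (3136), saline replicate 1 (1845), EucalyptusFlame replicate 3 (1341) and PineNeedlesSmolder replicate 3 (859). No library was set apart in this way for both mt-Nd6 and a member.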

How the results depend on the processing

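The count of members called stayed within 1.5 times its value (so 2 in place of 3 is counted as kept) in 84 of 96 refits with another setting and in 211 of 236 that left out 1 library. With detected symbols as a covariate the count was 0 of 3 for heart RedOakFlame, 0 for heart PeatSmolder, 2 for lung LPS at 24 h, 1 for saline over time and 1 for any difference in lung at 24 h. DESeq2 called 1 member for lung LPS at 24 h, 1 for any difference in lung at 24 h and 1 for the mean smoke in heart. Total-count scaling called 1 for lung LPS at 24 h and 0 for heart PeatSmolder, and dropping the count filter called 0 for heart PeatSmolder. Leaving out the lungs under 13000 detected symbols called 1 for lung LPS at 24 h. The causes were not tested. Without 1 library the count ran from 1 to 3 for heart RedOakFlame, from 0 to 1 for heart PeatSmolder, from 0 to 1 for the mean smoke in heart and from 0 to 1 for lung LPS at 24 h. For PeatSmolder the mt-Nd3 call was lost without any 1 PeatSmolder heart but replicate 2, any 1 saline heart but replicate 3, PeatFlame replicates 1 and 4, RedOakFlame replicates 4 to 6 and RedOakSmolder replicate 3. For the mean smoke mt-Nd3 gained a call without PeatSmolder replicate 2, RedOakSmolder replicate 2 or 5, or saline replicate 3, and after LPS at 24 h without LPS replicate 4 or saline replicate 2, 3 or 4.

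Among the results given, signs turned only for differences without a call. For mt-Atp8, flaming minus smoldering in lung at 24 h was 0.01 on plate 2 alone, 0.04 with the covariate, 0.07 with 1 probe, 0.01 with total counts and 0.05 without the lungs of few symbols, and for mt-Cytb it was -0.01 with no plate term. The mt-Nd3 mean smoke difference at 24 h was 0.22 with 1 probe, and -0.42 to 0.71 without 1 library. LPS at 4 h gave mt-Nd3 0.23 with 1 probe (-0.27 to 0.22 without 1 library) and mt-Cytb -0.07 with the covariate and -0.11 with total counts (-0.11 to 0.27 without 1 library). In heart, RedOakSmolder gave mt-Nd3 -0.10 with 1 probe (-0.18 to 0.11 without 1 library), mt-Atp8 0.11 with the covariate, and mt-Cytb 0.15 with the covariate and 0.03 with total counts (-0.08 to 0.07 without 1 library). PeatSmolder gave mt-Cytb 0.01 with the covariate.

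With the animal as a replicate block, which pairs the lung and heart of each saline mouse, the heart minus lung difference was 7.24 ± 0.69 for mt-Nd3, 7.33 ± 0.51 for mt-Atp8 and 7.35 ± 0.65 for mt-Cytb (edgeR adjusted p = 7.73e-06, 1.02e-06 and 4.5e-06), and 3 of 3 remained called. For the other comparisons no paired analysis was possible, because they set different animals against each other. Whole-table counts moved by more than 1.5 times in heart RedOakFlame (3 with the covariate, 1344 in the main model) and PeatSmolder (0 with the covariate, 745 with DESeq2, 480 in the main model), the mean smoke in heart (0 to 620, main 261), heart flaming minus smoldering (up to 94, main 4), lung LPS at 24 h (713 to 2865, main 1748), saline over time (0 to 478, main 0) and any difference in lung at 24 h (61 over the 24 h libraries alone, 16 on plate 2 alone, 163 with the covariate, 437 with total counts, main 2323). With total-count scaling the median log2 difference of all genes stood at 0.21 in heart RedOakFlame, 0.14 in heart PeatSmolder, -0.37 in lung LPS at 24 h and -0.91 in heart against lung. At this depth mt-Atp8 and mt-Cytb in the lowest lungs rest on few counts.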
